A study of Mus musculus with 2 samples.

Results

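The genes described are 8 members of the epidermal growth factor (EGF) family and its receptors, out of 32285 genes counted: the ligand genes Areg, Ereg, Hbegf, Tgfa and Nrg1 and the receptor genes Egfr, Erbb2 and Erbb3. They were chosen by symbol, and with earlier results of these same libraries in view, so their differences are given as descriptions. The libraries are single-cell 3' libraries from subcutaneous tumours of 4T1, a mouse mammary carcinoma line, 1 from mice given AIE COF-mediated phototherapy and 1 from mice given PBS. Both groups were harvested on day 7, and both came from hosts whose strain the labels write as C57BL/c, which could not be resolved. The sources used here give neither the age of the mice nor the number of animals behind each suspension. With 1 library per group there are no replicates and no test, and each difference is between these libraries.

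EGF-family ligands are made as membrane-anchored precursors that metalloproteases release, and they bind receptor tyrosine kinases on the same or on neighbouring cells. Amphiregulin (Areg), epiregulin (Ereg), HB-EGF (Hbegf) and TGF-alpha (Tgfa) bind EGFR, while neuregulin 1 (Nrg1) binds ERBB3 and ERBB4. ERBB2 has no known ligand of its own and ERBB3 has little kinase activity, so both signal mainly in pairs with other receptors. Amphiregulin is known as a product of tissue regulatory T cells and type 2 innate lymphoid cells as well as of epithelia, and neuregulin 1 is known from stroma, nerve and some macrophages.

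Areg lies on chromosome 5 of GRCm38 (91139599 to 91148432, plus strand), near Ereg on the same chromosome (91074622 to 91093646, plus strand). The promoter of Areg is shown because its transcription is known to answer cyclic AMP signalling through a site of this kind. The sequence is the RefSeq promoter on GRCm38.p6, chr5:91139349-91139648, plus strand, from 250 bases before to 50 bases after the start. The capitals mark a cyclic AMP response element (TGACGTCA) and a TATA box (TATAAA).
Areg promoter: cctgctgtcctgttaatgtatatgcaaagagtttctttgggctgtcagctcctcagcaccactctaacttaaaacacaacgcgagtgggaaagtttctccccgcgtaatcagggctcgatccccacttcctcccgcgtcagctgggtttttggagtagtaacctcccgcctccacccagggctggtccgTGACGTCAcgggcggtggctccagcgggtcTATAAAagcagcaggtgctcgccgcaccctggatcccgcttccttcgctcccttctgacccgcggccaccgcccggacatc
The response element begins 61 bases and the TATA box 31 bases before the start. Searched on both strands, TGACGTCA occurs in 1.79% and TATAAA in 13.6% of 32851 promoters of this length, and both occur together in 0.170%. Promoters of 4 of the 8 genes were matched by symbol, and those of Egfr, Erbb2 and Tgfa hold neither run of letters. A match is a description of the sequence and says nothing here of the factor.

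Barcodes numbered 10002 in the phototherapy and 8962 in the PBS library, with summed depths of 115576457 and 145045294 UMIs, and 39 barcode sequences occurred in both. After filtering, 8619 phototherapy and 7864 PBS cells remained, at medians of 3884 and 6341 UMIs. Cells low in Ptprc, the leukocyte antigen CD45, were divided by the median UMI count of their clusters into a high-RNA class (2420 phototherapy and 2722 PBS cells) and a low-RNA class (899 and 1832). The high-RNA class carried Hmga2 at 383 and 353 CPM (UMIs of the gene per 1000000 UMIs) and Rhox5 at 772 and 734 CPM, but all 12 epithelial markers, Epcam and the keratins among them, were under 1 CPM in both libraries. The label 4T1 is thus not borne out by epithelial markers, and these cells are called by their low Ptprc.

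In the whole tumour, Areg was the member with a higher level past 1.5-fold. It had 227 UMIs (2.21 CPM, 95% Poisson interval 1.93 to 2.52) in the phototherapy library and 167 UMIs (1.32 CPM, 1.13 to 1.53) in the PBS library. The level was 1.68-fold higher after phototherapy (1.37 to 2.06). Of 7 members with at least 50 UMIs in both libraries together, 1 was at least 1.5-fold higher and 0 were lower, where 8.5% of all 15629 such genes were higher and 4.89% lower. The members' median log2 ratio was 0.06, against 0.01 over all those genes. All intervals cover counting error only, and UMIs of 1 cell are not independent, so they are too narrow where few cells hold most UMIs.

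**Figure D1:**
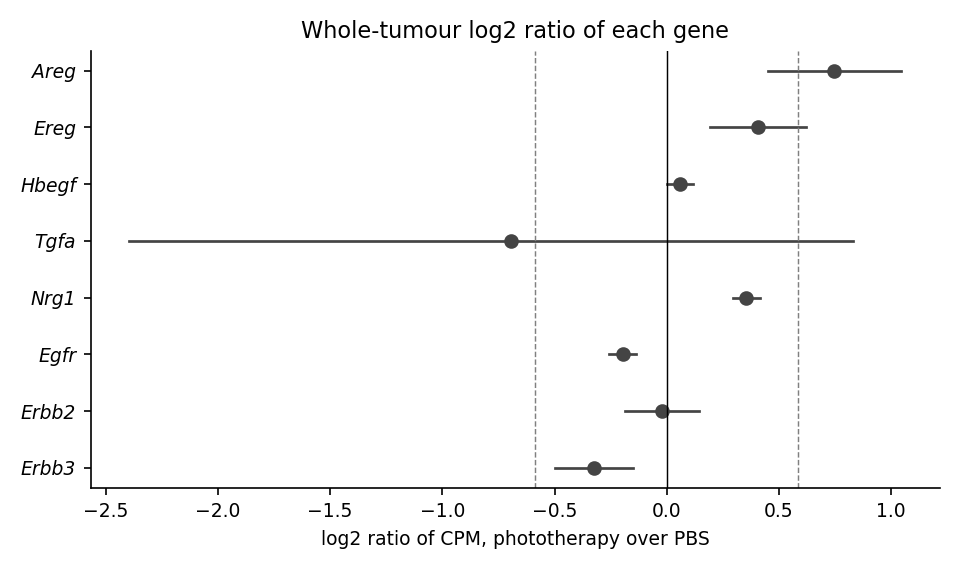
The horizontal axis gives the log2 ratio of whole-tumour CPM, phototherapy over PBS, for each gene; points are estimates, lines are 95% exact counting intervals, and dashed lines mark 1.5-fold. Areg lies beyond the upper dashed line at 0.75, and the interval of Tgfa spans both dashed lines.

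Among the other ligands, Ereg had 378 UMIs (3.68 CPM) in the phototherapy and 352 UMIs (2.78 CPM) in the PBS library, a log2 ratio of 0.41 (0.19 to 0.62). Nrg1, on chromosome 8 (31814551 to 32884029, minus strand), had 4333 UMIs (42.2 CPM) and 4184 UMIs (33.0 CPM), a log2 ratio of 0.35 (0.29 to 0.42). Both were higher in the phototherapy library by less than 1.5-fold on summed UMIs, but Ereg turned to -0.25 after thinning each cell to 1000 UMIs and to -0.01 as a mean of CPM per cell. Hbegf, on chromosome 18, had 44.6 and 42.8 CPM (log2 ratio 0.06). Tgfa, on chromosome 6, had 6 UMIs in the phototherapy library and 12 in the PBS library, with a log2 interval of -2.39 to 0.83, so a difference was not detectable at this depth.

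The receptors were level or lower. Egfr, on chromosome 11 (16752203 to 16918158, plus strand), had 3716 UMIs (36.2 CPM) in the phototherapy and 5259 UMIs (41.5 CPM) in the PBS library, a log2 ratio of -0.20 (-0.26 to -0.14). Erbb3, on chromosome 10 (128567523 to 128589652, minus strand), had 450 UMIs (4.38 CPM) and 696 UMIs (5.49 CPM), a log2 ratio of -0.32 (-0.50 to -0.15). Erbb2, also on chromosome 11 (98412470 to 98437716, plus strand), had 5.37 and 5.44 CPM, a log2 ratio of -0.02 (-0.18 to 0.14). Mien1, on the opposite strand, lies over the last 500 bases of Erbb2, and any part of it in the Erbb2 counts was not tested. Past 1.5-fold lower were Egfr after thinning (-0.59) and Erbb3 as a mean of CPM per cell (-0.66). Whole-tumour sums alone do not tell fewer cells of a type from less RNA per cell. The Ptprc-low, high-RNA class was 28.1% of phototherapy and 34.6% of PBS cells. With class shares set to the mean of the libraries, the log2 ratio was -0.11 for Egfr, -0.23 for Erbb3 and 0.13 for Erbb2.

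**Figure D2:**
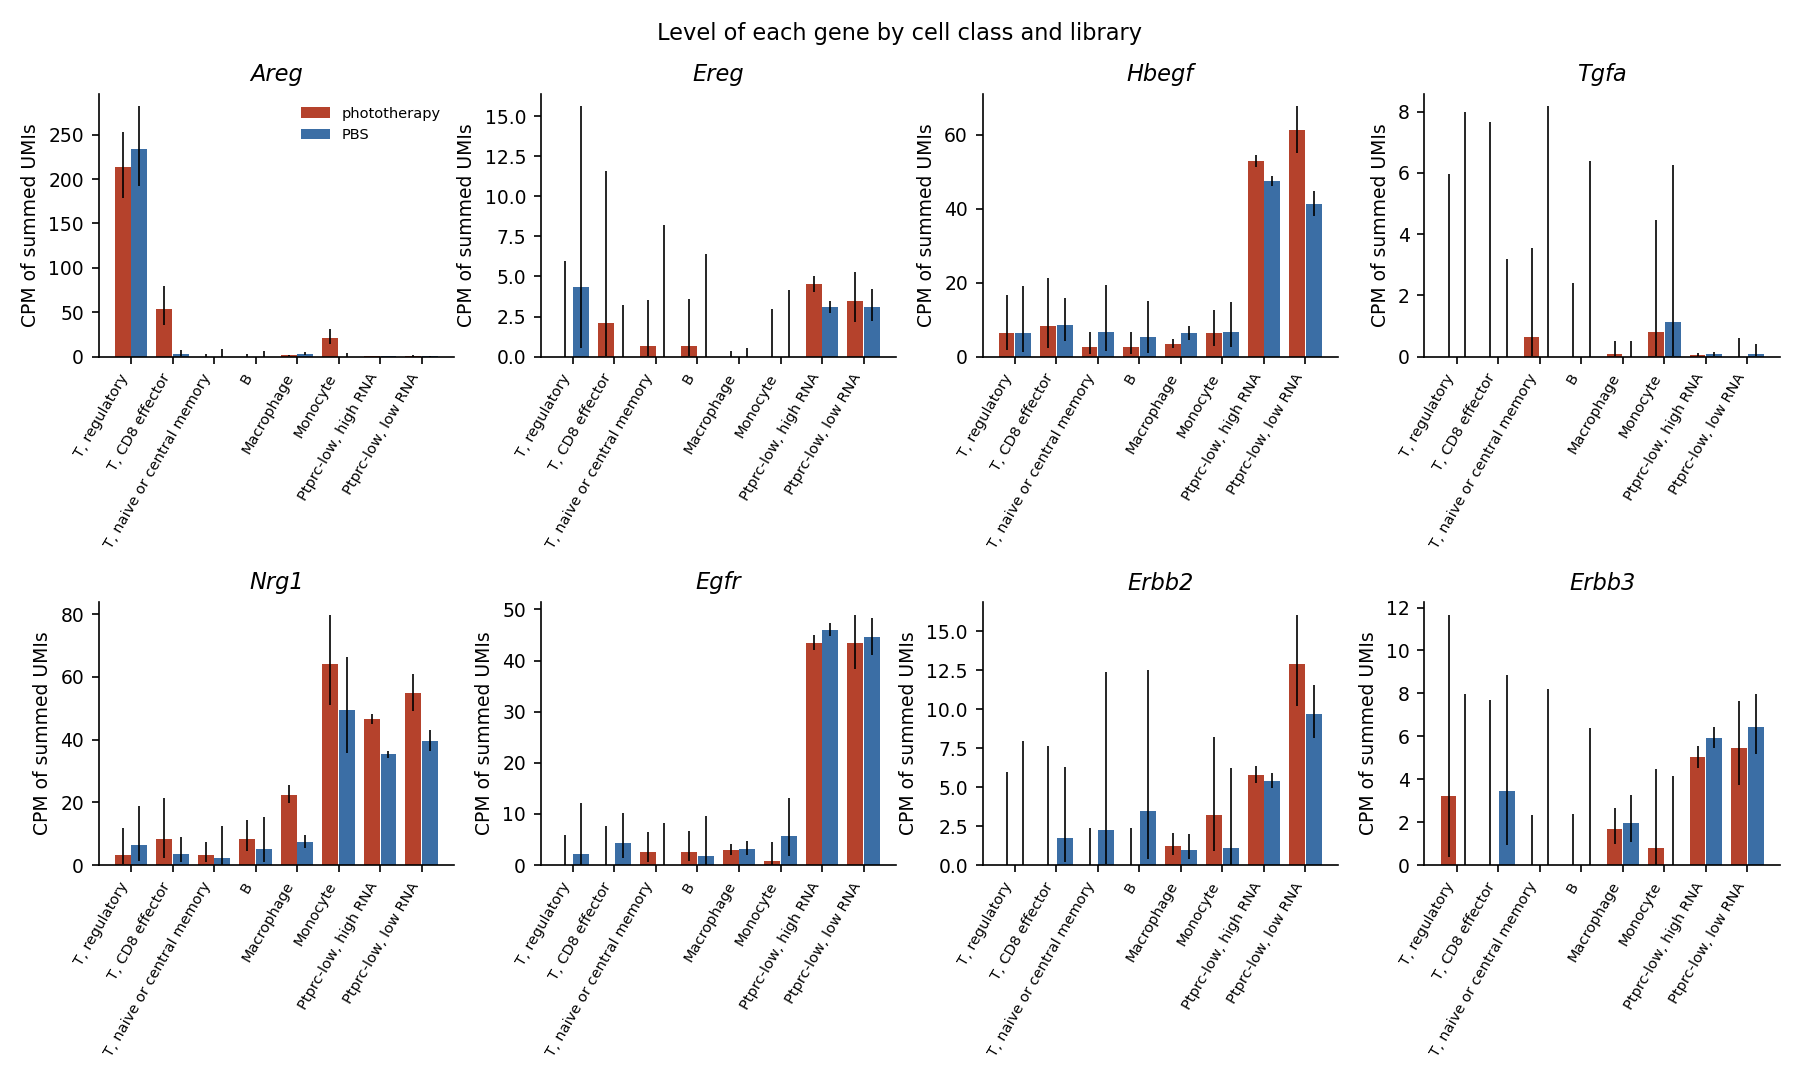
Each panel gives 1 gene's CPM of summed UMIs (vertical axes differ) in the 8 cell classes with at least 100 cells in each library, phototherapy left and PBS right; lines are 95% Poisson intervals. Areg stands highest in regulatory-T-like cells and Hbegf and Egfr in the Ptprc-low classes; the Ereg bar of PBS regulatory-T-like cells, at 4.33 CPM, rests on 2 UMIs.

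Areg came mostly from regulatory-T-like cells. They held 132 of 227 Areg UMIs (58.1%, Clopper-Pearson 51.4 to 64.6%) in the phototherapy library and 108 of 167 (64.7%, 56.9 to 71.9%) in the PBS library. Areg is among the leading genes of the larger cluster of this class, so its height there is a description. The name rests on markers fixed without Areg, of which 7 of 8 had UMIs (summed 3471 and 3962 CPM); Tnfrsf18, which lies inside Gm16008, was at 0. Of 7 markers of type 2 innate lymphoid cells, another known source of amphiregulin, 3 were at 0 in both libraries within this class and the list summed to 761 and 582 CPM; their part in the Areg level was not tested.

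Within regulatory-T-like cells the difference in Areg lay within counting error, though its direction and the level itself moved with the processing. The level was 213 CPM (178 to 253) in 256 phototherapy cells and 234 CPM (192 to 282) in 143 PBS cells, a log2 ratio of -0.13 (-0.51 to 0.25). It was 501 and 449.8 CPM at clustering resolution 2.0 (log2 ratio 0.15), and 379.8 and 312 CPM with each library clustered on its own (0.28). Without the 10 cells of each library with most Areg UMIs the log2 ratio was 0.98. Areg UMIs were found in 46 phototherapy and 23 PBS cells, and the cells with most held 12 and 21. Leaving out 10 cells thus took a larger share of the PBS cells with a UMI. After thinning each cell to 1000 UMIs, 8.77% of 228 phototherapy and 8.40% of 131 PBS cells had an Areg UMI (unthinned 18.0% and 16.1%, with 28 and 12 shallower cells dropped), and 0 of 779 and 0 of 304 B-like cells, which allows a share of up to 0.385% and 0.987%. The class medians were 1817 and 2105 UMIs, against 1155 and 1483 in B-like cells. Of all genes with at least 50 UMIs in the class, 6.81% were at least 1.5-fold higher and 6.11% lower. The class itself was 2.97% of phototherapy cells (2.62 to 3.35%) and 1.82% of PBS cells (1.53 to 2.14%). When the class shares of both libraries were set to their mean, the whole-tumour log2 ratio of Areg was 0.09, against 0.75 as captured. It was -0.36 with named classes of at least 20 cells in each library weighted equally. That weighting counts mature-dendritic-like cells as much as any other class. Their Areg level was 140 CPM in PBS, from 10 UMIs in 3 of 21 cells, with 0 UMIs in 34 phototherapy cells.

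Smaller sources of Areg differed between the libraries, and each rests on few cells. In CD8-effector-like cells there were 26 UMIs in 10 of 116 phototherapy cells and 3 UMIs in 2 of 245 PBS cells, a log2 ratio of 4.38 (2.67 to 6.75). That ratio was 6.96 as a mean of CPM per cell, 1.92 with the stricter cell filter, 1.81 with doublets kept, 1.91 at clustering resolution 2.0 and 1.52 after thinning. In monocyte-like cells 26 UMIs lay in 3 phototherapy cells, 21 of them in 1 cell, and 0 in 195 PBS cells. In macrophage-like cells 13 UMIs lay in 3 phototherapy cells and 23 in 6 PBS cells, with 10 and 16 in the cell with most; 12 of the 13 lay in 2 cells of a finer cluster led by Chil3 and Lyz2, which also holds nearly all monocyte-like cells. In mature-dendritic-like cells there were 0 UMIs in 34 phototherapy cells and 10 UMIs in 3 of 21 PBS cells. Naive-like T cells and B-like cells had 0 in both libraries.

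**Figure D3:**
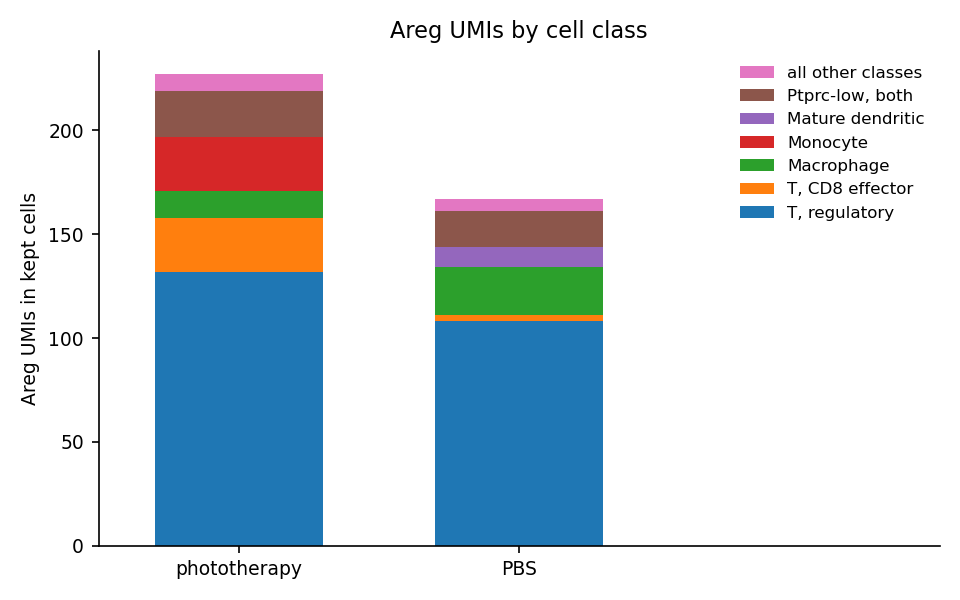
Stacked bars give the number of Areg UMIs in kept cells of the phototherapy (left) and PBS (right) library by cell class. The regulatory-T-like block is the largest in both, with 132 and 108 UMIs.

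Nrg1 was higher in macrophage-like cells of the phototherapy library. It had 242 UMIs in 101 of 1288 phototherapy cells (22.5 CPM, 19.7 to 25.5) and 52 UMIs in 35 of 925 PBS cells (7.23 CPM, 5.40 to 9.48), 3.11-fold higher (2.30 to 4.28). Over the fixed alternatives the log2 ratio of 1.64 ranged from 1.32 to 1.90. The class leaves out a shallow cluster of 404 phototherapy and 659 PBS cells that met 9 of 12 macrophage markers. That cluster is among the unnamed cells (621 and 902), where Nrg1 had 53 and 46 UMIs (32.5 and 20.5 CPM, log2 ratio 0.66, 0.06 to 1.26). Of the 3 members with at least 50 UMIs in macrophage-like cells, Nrg1 was higher and Hbegf lower past 1.5-fold, where 3.66% of all genes were higher and 6.22% lower. Hbegf had 36 phototherapy and 45 PBS UMIs (3.35 and 6.26 CPM), near its 2.60 and 5.19 CPM in B-like cells, which rest on 4 and 3 UMIs. Egfr stood at 2.88 and 3.06 CPM.

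Levels of genes of the Ptprc-low cells were given beside this difference because free RNA of those cells can reach every droplet. Hmga2 was 15.8 and 15.7 CPM in the phototherapy and PBS macrophage-like cells, and Rhox5 30.02 and 39.5 CPM. Nrg1 in B-like cells was 8.45 CPM (4.50 to 14.5) in the phototherapy and 5.19 CPM (1.07 to 15.2) in the PBS library, with 13 and 3 UMIs. In summed CPM the phototherapy macrophage-like interval thus lay above the B-like one, and the PBS intervals overlapped. After thinning, 1.73% of 1270 phototherapy (1.09 to 2.61%) and 0.876% of 913 PBS macrophage-like cells (0.379 to 1.72%) had an Nrg1 UMI (unthinned 7.84% and 3.78%; 18 and 12 cells dropped), intervals that overlap. In B-like cells it was 0.513% of 779 (0.140 to 1.31%) and 0.987% of 304 (0.204 to 2.86%). The thinned shares of B-like cells rest on 4 and 3 cells with a UMI, and their intervals overlap those of the macrophage-like cells in both libraries. The part of free RNA in the difference was not tested. Class medians were 7392 phototherapy and 6770 PBS UMIs.

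The macrophage-like cells fell into 5 finer clusters at resolution 2.0, and Nrg1 was higher in the phototherapy library in each. The largest, led by C1qc and Apoe, had 148 UMIs (27.1 CPM) in 589 phototherapy and 28 UMIs (8.05 CPM) in 395 PBS cells. The one led by Chil3, Lyz2 and the monocyte marker Ccr2 is the finer cluster of the monocyte-like cells, holding 335 of 336 phototherapy and 193 of 195 PBS cells of that class. Its macrophage-like cells had 43 UMIs (79.6 CPM) in 92 phototherapy and 8 UMIs (23.6 CPM) in 49 PBS cells. With classes named anew at resolution 2.0, the Nrg1 log2 ratio in macrophage-like cells was 1.45. Those led by Pf4 and Ccl12 (10.2 and 4.09 CPM), by C1qc and C1qa (11.0 and 3.83 CPM) and by Spp1 and Cxcl2 (13.0 and 6.09 CPM) had 35, 7 and 9 phototherapy UMIs and 6, 6 and 2 PBS UMIs. The log2 intervals of the last 2 include 0, and that of the Pf4 and Ccl12 cluster was 0.06 to 2.86. In that cluster 1 phototherapy cell held 16 of the 35 UMIs, and in the largest cluster 1 held 20 of 148.

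**Figure D4:**
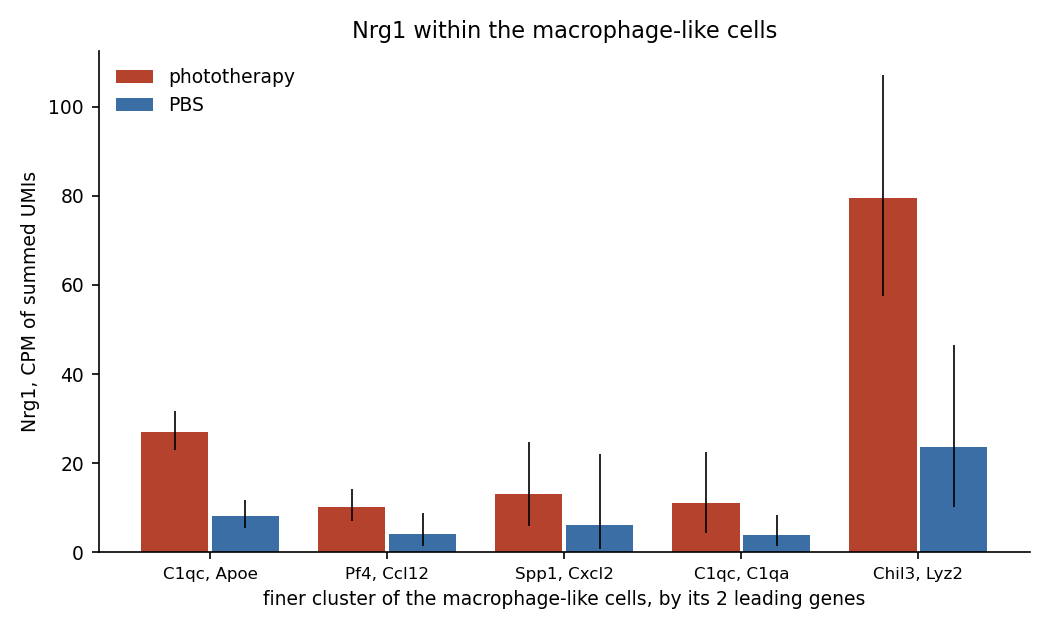
Bars give Nrg1 in CPM of summed UMIs in macrophage-like cells of 5 finer clusters, phototherapy left and PBS right, with 95% Poisson intervals; the Chil3, Lyz2 cluster is mostly of monocyte-like cells. The phototherapy bar is the higher one in all 5, with intervals that overlap in 3.

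In monocyte-like cells Nrg1 had 80 UMIs (64.2 CPM, 50.9 to 79.9) in 336 phototherapy cells and 44 UMIs (49.4 CPM, 35.9 to 66.3) in 195 PBS cells, a log2 ratio of 0.38 (-0.17 to 0.94). The ratio was 0.75 at clustering resolution 2.0, 2.005 without the 10 cells of each library with most Nrg1 UMIs, and -0.006 after thinning. Nrg1 UMIs lay in 44 phototherapy and 18 PBS cells, so leaving out 10 took a larger share of the PBS ones. Nrg1 was the 1 member with at least 50 UMIs there, where 6.55% of all genes were at least 1.5-fold higher and 7.72% lower.

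Most Nrg1 UMIs, 90.4% in the phototherapy and 96.1% in the PBS library, came from Ptprc-low cells. In the high-RNA class it had 3583 UMIs in 1177 phototherapy cells (46.5 CPM) and 3489 UMIs in 1088 PBS cells (35.3 CPM), a log2 ratio of 0.40 (0.33 to 0.47). The cluster led by Cilp and H19, with matrix genes, differed most of its 3 clusters, with 30.4 and 16.1 CPM (log2 ratio 0.92, 0.73 to 1.10); the others stood at 0.29 and 0.22. In the low-RNA class Nrg1 had 54.8 and 39.6 CPM (log2 ratio 0.47, 0.27 to 0.67).

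Ereg and Hbegf were genes of the Ptprc-low cells in both libraries. These cells held 97.6% of Ereg UMIs in the phototherapy and 98.6% in the PBS library. In the high-RNA class Ereg had 348 UMIs in 217 cells (4.52 CPM) and 305 UMIs in 204 cells (3.08 CPM), a log2 ratio of 0.55 (0.33 to 0.78), and 0.17 after thinning. Hbegf had 52.8 and 47.5 CPM there (log2 ratio 0.15, 0.09 to 0.21) and 61.3 and 41.3 CPM in the low-RNA class (0.57, 0.37 to 0.76). The Hbegf ratio in the low-RNA class lay just under 1.5-fold and passed it at clustering resolution 2.0 (log2 ratio 0.61), as a mean of CPM per cell (0.80) and after thinning (1.02), while it was 0.20 with the stricter cell filter. Hbegf UMIs were also present in 12 of 25 phototherapy and 11 of 19 PBS endothelial-like cells, at class levels of 152 CPM (102 to 217) and 193 CPM (135 to 267). Of 6 members measured in each Ptprc-low class, 0 were past 1.5-fold either way on summed UMIs. After thinning, the low-RNA class also had Nrg1 at 0.68, Erbb2 at 0.73, Ereg at -1.51 and Erbb3 at -1.34, all past 1.5-fold, and Erbb3 was -0.92 there as a mean of CPM per cell. Among all genes the shares higher and lower were 4.42% and 4.61% in the high-RNA class, and 3.92% and 4% in the low-RNA class.

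The receptors were found in the same Ptprc-low cells. They held 97.1% of Egfr, 94.7% of Erbb2 and 93.1% of Erbb3 UMIs in the phototherapy library, and 98.1%, 96.5% and 96.7% in the PBS library. In the high-RNA class Egfr had 3344 UMIs in 1418 cells (43.4 CPM) and 4557 UMIs in 1637 cells (46.1 CPM), a log2 ratio of -0.08 (-0.15 to -0.02). Erbb3 had 5.01 and 5.92 CPM (log2 ratio -0.24, -0.43 to -0.05), a direction that turned to 0.39 after thinning, and Erbb2 5.77 and 5.41 CPM (0.09, -0.09 to 0.28). Erbb3 was lowest relative to PBS in the cycling cluster, with 105 and 206 UMIs (3.46 and 5.13 CPM, log2 ratio -0.57, -0.92 to -0.22). Egfr UMIs were also found in 11 of 19 phototherapy and 5 of 7 PBS fibroblast-like cells, at class levels of 269 CPM (191 to 367) and 302 CPM (193 to 449).

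Ligand and receptor UMIs met in single Ptprc-low, high-RNA cells. Hbegf and Egfr were both seen in 845 of 2420 phototherapy cells (34.9%) and 928 of 2722 PBS cells (34.1%). Nrg1 and Erbb3 were both seen in 160 (6.61%) and 171 (6.28%), and Erbb2 and Erbb3 in 52 (2.15%) and 73 (2.68%). On their own, Hbegf was seen in 1313 phototherapy and 1362 PBS cells and Egfr in 1418 and 1637. Nrg1 was seen in 1177 and 1088, Erbb3 in 300 and 411, and Erbb2 in 369 and 457. The overlap that these single-gene counts would give without any link was not computed, so the pairs are counts only. Cells with more UMIs show more pairs, and these counts were not thinned.

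Other genes of the pathway past 1.5-fold were counted beside the shares of all genes, which were 8.5% higher and 4.89% lower in the whole tumour, 4.42% and 4.61% in the high-RNA class, and 3.66% and 6.22% in macrophage-like cells. Of 6 other ligands, 4 had at least 50 UMIs in the whole tumour and 0 were past 1.5-fold (median log2 ratio -0.13, against 0.01 over all genes). In the high-RNA class 2 of 4 were lower, Nrg4 (0.702 and 1.16 CPM, log2 ratio -0.73) and Nrg2 (0.909 and 1.42 CPM, -0.64). The neuregulin gene Nrg3, with more UMIs (330 and 411), was at 0.05 there, and Egf at -0.19. In macrophage-like cells 1 of 3 was lower, Nrg2 (7.44 and 12.9 CPM, -0.80). The remaining receptor Erbb4 had 42 and 79 UMIs in the whole tumour and was lower there (log2 ratio -0.61, -1.18 to -0.05). In the high-RNA class it had 27 and 38 UMIs and was not past 1.5-fold (-0.13, -0.90 to 0.62). Of 6 ligand-shedding genes, 5 were measured and 0 were past 1.5-fold (median 0.05). The inactive rhomboids Rhbdf1 (-0.46) and Rhbdf2 (0.44), which carry the shedding protease ADAM17, had the largest ratios.

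Of 21 receptor-proximal genes, 0 were past 1.5-fold in the whole tumour (median 0.09) or in the high-RNA class (0.03). In macrophage-like cells, where 3.66% of all genes were higher, 1 of 20 measured was higher, the docking protein gene Gab1, at 29.9 and 15.4 CPM (log2 ratio 0.96, 0.64 to 1.28). Of 12 names for receptor attenuation 11 were matched, as Nrdp1 and Rnf41 are names of 1 gene, and 2 were higher in the whole tumour (8.5% of all genes), Socs3 (39.2 and 24.6 CPM) and the ubiquitin ligase gene Cblb (49.8 and 32.3 CPM). The list's median was 0.15. In the high-RNA class 0 of 11 and in macrophage-like cells 0 of 10 were past 1.5-fold.

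Of 16 genes of ERK feedback, 2 were higher and 0 lower in the whole tumour (8.5% and 4.89% of all genes), the phosphatase gene Dusp5 (17.2 and 10.5 CPM, log2 ratio 0.72) and Ier3 (27.1 and 17.2 CPM, 0.65), with a list median of 0.11. Ier3 was also higher in the high-RNA class (0.59) and the early response gene Egr1 was lower (197 and 302 CPM, -0.61), and in macrophage-like cells 1 of 11 was lower, also Egr1. Among 15 immediate early genes that tissue dissociation is known to raise, 2 were higher and 1 lower in the whole tumour, namely Nr4a1 (0.97), Dusp1 (0.91) and the chaperone gene Hspa1b (6.88 and 23.0 CPM, -1.74), with a list median of 0.20. In the high-RNA class 1 of 14 was higher and 2 were lower (4.42% and 4.61% of all genes). In macrophage-like cells 4 of 15 were lower and 0 higher (6.22% and 3.66% of all genes), Hspa1b (-2.03), Hspa1a (-1.28), Egr1 (-0.82) and Jun (-0.70). These genes answer handling of the tissue as well, and their part in the values above was not tested.

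Likeness of profile was described over 16 profiles, 8 classes in each library, among 10445 genes. Nearest to Areg were Stx6 (Pearson r 0.884), Vps54 (0.883) and Sdf4 (0.865), and among the nearest to Nrg1 were Met (0.932) and Fn1 (0.921). For Ereg they were Pax9 (0.935), Myg1 (0.922) and Nae1 (0.919), and for Hbegf Cyc1 (0.970), Polr2f (0.965) and Itgb1bp1 (0.965). Among receptors, Egfr was nearest to Fut10 (0.966), Rrs1 (0.963) and Prkd1 (0.961), Erbb2 to Zbtb7c (0.927), Mxra8 (0.919) and Hyal2 (0.903), and Erbb3 to Tctn2 (0.966), Apol10b (0.922) and Prelid3a (0.922). The profiles share their libraries and depth, so these values describe these classes alone.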

How the data were processed

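The authors deposited raw UMI counts for each gene in each barcode. STAR and mm10 are named in the submitters' processing notes, and no source used here names the counting program or its annotation. The number of columns of per-sample values not used was 0. Members and gene lists were chosen with earlier results of these data known.

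Barcodes with at least 200 genes and at most 20% mitochondrial UMIs were kept. The highest Scrublet scores (scanpy 1.11.5) were removed at 0.8% per 1000 barcodes, taking 694 phototherapy and 569 PBS barcodes. Counts scaled to 10000 per cell, 2000 variable genes, 30 principal components and 15 neighbours fed Leiden clustering at resolution 1.0, without integration, and T and NK cells were clustered again. Markers were fixed, but the naming rule was written with the clusters in view: over 50% of a type's detected markers, and at least 3, at 25% of their highest level and in 5% of cells. A cluster stayed unnamed if markers of another type were more frequent among its 10 leading genes. So did a cluster of low median UMIs with none of its type's markers among those genes. By that last rule, 1 cluster (404 phototherapy and 659 PBS cells) that met 9 of 12 macrophage markers stayed unnamed. Ptprc-low clusters had under 100 CPM of Ptprc, and high RNA meant a median of at least 10000 UMIs.

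UMIs were summed per library and class and given as CPM, with exact Poisson, Clopper-Pearson and conditional binomial 95% intervals. A count of 0 took a floor of 3 counts. Named genes are the members, up to 4 genes per list with at least 50 UMIs and the largest ratios, and the 3 genes nearest in profile to each member, of which 1 is not reported here. Some further genes appear as markers or background levels. Gene positions are from GENCODE M21. The code for ratios and intervals was checked on simulated counts with known fold changes. Alternatives are described in the closing section.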

Additional observations from a re-analysis of the deposited data

Results flagged for a closer look

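In the main processing, Areg differed in opposite directions between cell classes, a difference between the classes that was not tested. Its log2 ratio, phototherapy over PBS, was 4.38 in CD8-effector-like cells. In monocyte-like cells, where the PBS library had 0 UMIs, it was 2.63 with the floor of 3 counts, and the counting interval began at 2.23. It was -1.40 in macrophage-like cells. In mature-dendritic-like cells, only 34 phototherapy and 21 PBS cells, the phototherapy library had 0 UMIs. The ratio there was -2.35 with the same floor, and the counting interval ended at -1.78. The values rest on 10 phototherapy and 2 PBS cells, 3 and 0 cells, 3 and 6 cells, and 0 and 3 cells with an Areg UMI. With doublets kept, the monocyte-like and macrophage-like ratios both changed sign, and the macrophage-like one also did after thinning. In the phototherapy library 1 monocyte-like cell held 21 of 26 UMIs. Of 13 macrophage-like UMIs there, 12 lay in the finer cluster that holds nearly all monocyte-like cells.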

How the results depend on the processing

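Every alternative kept the sign of the Nrg1 ratio in macrophage-like cells and held it inside its counting interval. The whole-tumour log2 ratio of Nrg1 (0.35) was 0.22 as a mean of CPM per cell, 0.20 after thinning to 1000 UMIs, 0.64 with classes weighted equally and 0.43 with class shares set to the mean of the libraries. That of Areg (0.75) turned to -0.36 with classes weighted equally and was 0.093 with class shares set to their mean. Equal weight took named classes of at least 20 cells in each library. Among them were mature-dendritic-like cells, with 10 Areg UMIs in 3 of 21 PBS cells and 0 in 34 phototherapy cells. The whole-tumour Areg ratio was 1.28 without the 10 cells of each library with most Areg UMIs. Areg UMIs lay in 81 phototherapy and 53 PBS cells, so leaving out 10 took a larger share of the PBS ones. With class shares set to their mean, 0 members were past 1.5-fold higher, against 1. Members past 1.5-fold lower numbered 1, against 0, as a mean of CPM per cell (Erbb3), after thinning (Egfr), and with members of at least 10 UMIs (Tgfa). Areg in regulatory-T-like cells (-0.13) was 0.28 with each library clustered on its own, 0.25 after thinning and 0.98 without the 10 cells with most Areg UMIs; without the cycling-led cluster, chosen after seeing the data, it was -0.07. Areg in macrophage-like cells (-1.40) turned to 0.034 with doublets kept and to 0.11 after thinning, was -0.25 with the stricter cell filter, and went further the same way to -5.27 with each library clustered on its own and -5.10 at resolution 2.0. In monocyte-like cells (2.63) it turned to -0.055 with doublets kept and was 0.12 with the stricter filter and 0.67 after thinning. Egfr in macrophage-like cells (-0.09) was 1.52 after thinning, which started from only 31 phototherapy and 22 PBS UMIs. The cause was not tested. Without replicates, no library can be left out, and no paired analysis was possible because each group has 1 sample. Tgfa was too sparse for any statement. Thinned values of Ereg, Erbb2 and Erbb3, and of Egfr in macrophage-like cells, rest on 1 random draw and few UMIs.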

Other observations

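Among the epithelial markers, 2 stood higher in macrophage-like cells than in the Ptprc-low, high-RNA class, a pair chosen after their values were seen. Cdh1, the gene of E-cadherin, had 76 phototherapy and 23 PBS UMIs in macrophage-like cells (7.06 and 3.20 CPM), against 0.60 and 0.65 CPM in the high-RNA class. Spint1, a serine protease inhibitor gene, had 404 and 238 UMIs (37.6 and 33.1 CPM), against 0.34 and 0.25 CPM. Monocyte-like cells had Spint1 at 69.8 and 68.4 CPM and Cdh1 at 12.04 and 1.12 CPM, the last from 1 UMI. The whole epithelial list summed to 83.5 and 69.6 CPM there, against 46.1 and 36.6 CPM in macrophage-like cells. Of its 12 genes, 10 were under 1 CPM in both libraries of macrophage-like cells.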
